A study of Homo sapiens with 4 samples.

Results

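The genes described here are the EGF receptor family, its ligands and MET, taken by symbol from the count tables: the receptors EGFR, ERBB2, ERBB3 and MET and the ligands HBEGF, AREG, EREG and TGFA, 8 of 19192 genes. They were measured in SW480, an established human colorectal adenocarcinoma line labelled intestinal epithelial, in cells labelled IMP1-/- and in wild-type cells, with no further treatment in the labels. IGF2BP1 encodes IMP1, an RNA-binding protein that acts on mRNA stability, localisation and translation. Each genotype gave 1 library of total RNA and 1 of ribosome-protected fragments (RPF, the mRNA pieces covered by ribosomes), so each of the 4 groups had 1 library, made from 3 pooled culture plates. The sources used here do not say how the knockout was made or whether it is 1 clone.

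The ERBB receptors are cell-surface tyrosine kinases that pair when a ligand binds and signal through the RAS, ERK and PI3K routes. EGFR binds all the ligands of this set, ERBB3 binds neuregulins and has little kinase activity of its own, and ERBB2 has no known ligand and serves as the partner of the others. HBEGF, AREG, EREG and TGFA are made as membrane-anchored precursors and released by the protease ADAM17. MET is the receptor of hepatocyte growth factor. In the colon these receptors and ligands take part in epithelial growth and wound repair.

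Library totals ranged from 3778316 to 5551479 counts. IGF2BP1 had 571 reads in knockout-labelled RNA against 598 in wild-type RNA (log2 change 0.08, 95% counting interval −0.08 to 0.25), and 149 footprints in the knockout-labelled library against 285 in wild type (−0.93, −1.23 to −0.65). Its RNA therefore did not show the labelled loss, and every direction below is between libraries as labelled. Wild-type RNA carries SW840 in its cell-line field, whereas its source name and the other 3 libraries say SW480. The epithelial markers KRT8, KRT18, KRT19, EPCAM and CDH1 had reads in all 4 libraries, with RNA changes on the log2 scale (knockout-labelled over wild type) of −0.67 for KRT8, −0.62 for KRT18, −0.11 for KRT19, 0.23 for EPCAM and 1.93 for CDH1. Of the 5 intestinal markers, KRT20 and LGALS4 were at 0 in all 4 libraries and CDX1 had 0 reads in knockout-labelled RNA against 2 in wild-type RNA. CDX2 had 103 reads in knockout-labelled RNA against 268 in wild-type RNA, and VIL1 had 2 in knockout-labelled RNA against 160 in wild-type RNA. The part of these differences in the results below was not tested. The 5 mesenchymal markers summed to 5.47 CPM in knockout-labelled RNA and 1.98 CPM in wild-type RNA, with DCN at 0 in all 4 libraries. The 6 leukocyte and endothelial markers summed to 8.72 CPM in knockout-labelled RNA and 9.73 CPM in wild-type RNA, with PTPRC and CD3E at 0 in all 4. With 1 library per group there is no replicate check and no test. Genotype cannot be told apart from clone, culture or library preparation, and in bulk cells a different share of expressing cells cannot be told apart from a different amount of RNA per cell.

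HBEGF, AREG and MET were the members higher in the knockout-labelled libraries in both RNA and RPF. The sequences next to their starts are shown because the 3 genes lay on the same side in both kinds of library. They come from RefSeq (GRCh38.p14), read 5′ to 3′ on each gene's own strand, and end just before the more upstream of the RefSeq and GENCODE starts: chr4:74444886-74445133 on the plus strand for AREG, chr5:140346632-140346853 on the minus strand for HBEGF and chr7:116671946-116672195 on the plus strand for MET. Capitals mark matches on either strand to a searched motif.
AREG: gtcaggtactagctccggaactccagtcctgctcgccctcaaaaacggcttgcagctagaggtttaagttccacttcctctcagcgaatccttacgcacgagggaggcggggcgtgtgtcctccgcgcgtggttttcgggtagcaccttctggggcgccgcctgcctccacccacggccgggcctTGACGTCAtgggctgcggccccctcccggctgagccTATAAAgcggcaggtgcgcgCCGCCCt
HBEGF: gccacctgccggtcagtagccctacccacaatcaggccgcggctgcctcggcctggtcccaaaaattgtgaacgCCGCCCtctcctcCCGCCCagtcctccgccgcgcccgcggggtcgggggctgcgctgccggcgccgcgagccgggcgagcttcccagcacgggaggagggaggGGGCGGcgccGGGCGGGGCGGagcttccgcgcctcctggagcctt
MET: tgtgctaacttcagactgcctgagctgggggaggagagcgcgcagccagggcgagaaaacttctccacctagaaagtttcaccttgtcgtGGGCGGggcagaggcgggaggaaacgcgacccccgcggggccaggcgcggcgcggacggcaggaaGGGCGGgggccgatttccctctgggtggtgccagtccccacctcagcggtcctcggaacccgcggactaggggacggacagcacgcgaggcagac
The motifs searched, on both strands, were the cAMP response element TGACGTCA and the related TGACGCAA, the AP-1 site TGAGTCA, the TATA box as TATAAA, the CCAAT box, the Sp1-type GC box GGGCGG and the TCF/LEF-type site CTTTGAT. The AREG window held TGACGTCA, beginning 63 bases before its end, TATAAA, beginning 27 bases before its end, and 1 GGGCGG on the reverse strand. Of the motifs searched, the windows of HBEGF and MET held only GGGCGG, 5 times in HBEGF and 2 times in MET. In HBEGF only the 2 copies nearest the end of the window overlap, by 1 base. Among the other members searched, EGFR held GGGCGG 2 times and TGFA 1 time, in a window of 61 bases, and EREG held TATAAA 1 time and CCAAT 2 times. Among 35116 RefSeq promoters, 1.64% held TGACGTCA and 10.7% TATAAA in a window as long as that of AREG, and 39.2% held GGGCGG in one as long as that of HBEGF. A match of letters is a description and not a binding site, and the letters of the related response element, the AP-1 site, the CCAAT box and the TCF/LEF-type site were not in these 3 windows.

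Of the 8 members, 7 had at least 50 reads over the genotypes in both kinds of library and were measured. To be called, a gene needed a scaled ratio (knockout-labelled over wild type) past 1.5-fold in either direction, with a 95% counting interval that excluded no change. In RNA, 4 of the 7 were higher and 0 lower, and among all 10875 genes measured 16.2% were higher and 17.8% lower. In RPF, 3 of the 7 were higher and 0 lower, against 19.0% higher and 20.1% lower among 9794 genes. HBEGF, AREG and MET, 3 of the 7, were higher in both, as were 7.89% of the 9598 genes measured in both. At a 2-fold threshold 3 members were higher in RNA and 3 in RPF, with 0 lower and 0 called in TE, beside 6.39% of all genes higher and 8.35% lower in RNA, 9.00% and 9.87% in RPF, and 6.46% and 6.28% in TE. The median log2 change of the 7 members was 0.78 in RNA and 0.30 in RPF, while the medians over all genes measured were −0.01 and −0.0007.

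**Figure D1:**
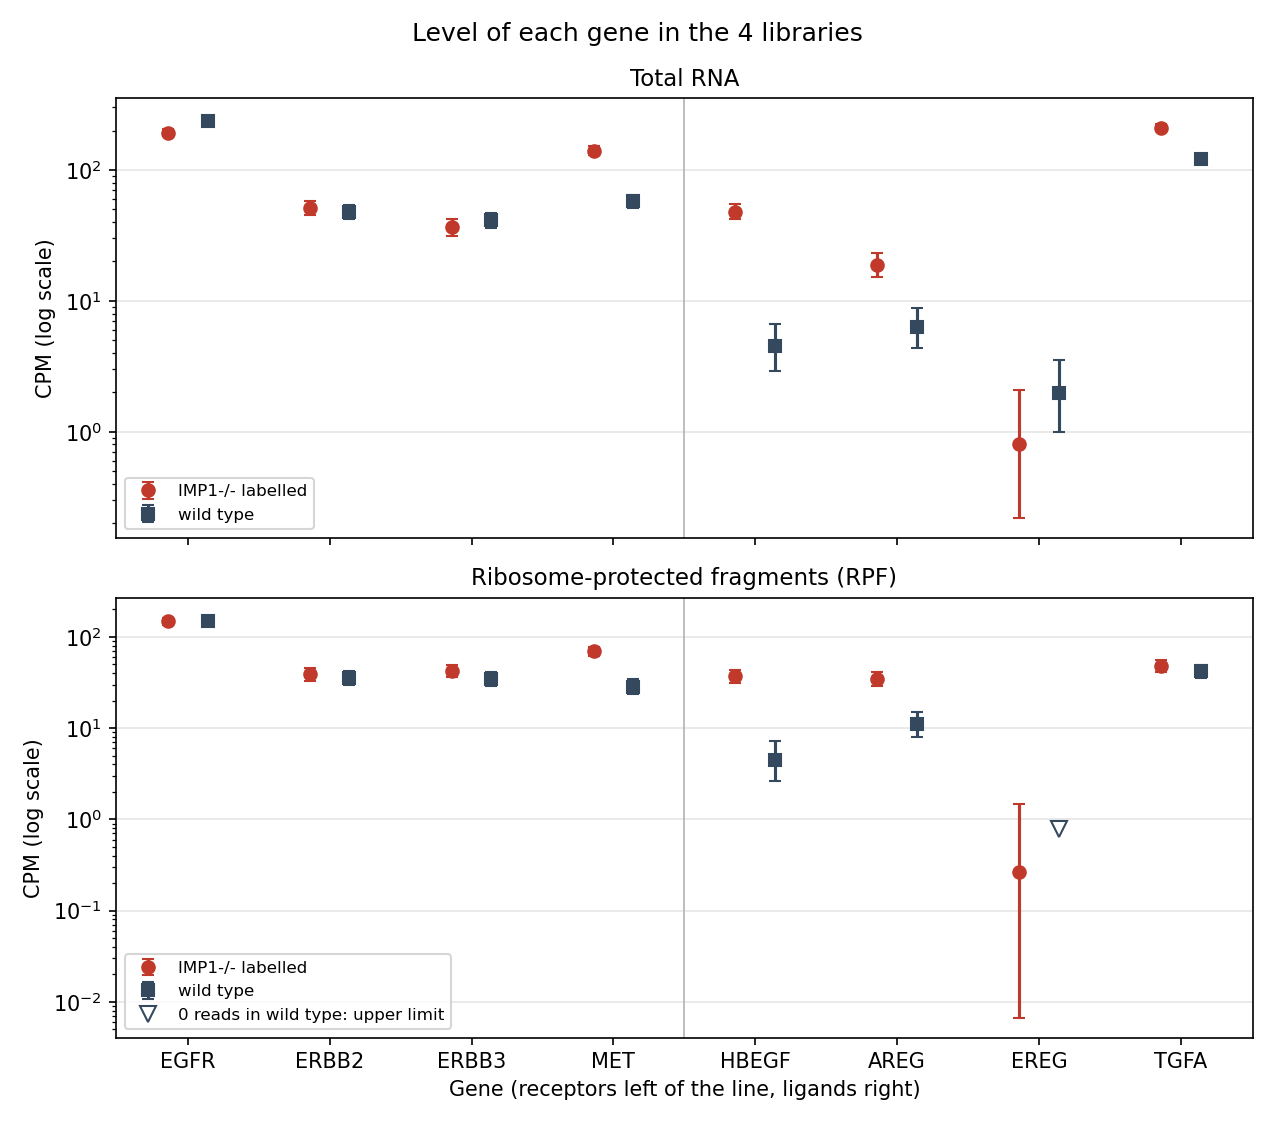
CPM (counts scaled to the library total, log axis) of each gene in total RNA (top) and RPF (bottom), in the knockout-labelled library (circles) and the wild-type library (squares), with exact 95% Poisson intervals for counting error. HBEGF lay at 48.0 CPM in knockout-labelled RNA and 4.50 CPM in wild-type RNA, while ERBB2 and ERBB3 had overlapping intervals in both panels, and EREG had 0 reads in wild-type RPF, drawn as a triangle at 3 counts (0.793 CPM) and not at a Poisson bound.

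HBEGF, the heparin-binding ligand of EGFR, is read from ENST00000230990 (chromosome 5, 140332843 to 140346631, minus strand, GRCh38, 6 exons). It had 237 reads (48.0 CPM) in knockout-labelled RNA against 25 reads (4.50 CPM) in wild-type RNA. In RPF it had 140 reads (37.1 CPM) in the knockout-labelled library against 17 (4.49 CPM) in wild type. Both knockout-labelled libraries were therefore the high ones, with counting intervals far from those of wild type. The RNA ratio was 10.3-fold (95% interval 6.96 to 16.6) and the RPF ratio 8.02-fold (4.96 to 14.5). Counting HBEGF itself, 26 of the 10875 genes had an RNA change this high or higher and 55 of the 9794 genes an RPF change this high or higher. Its wild-type values rest on few reads, which sets the width of these intervals.

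AREG encodes amphiregulin, an EGFR ligand (ENST00000395748, chromosome 4, 74445134 to 74455009, plus strand, 6 exons). It had 93 reads (18.9 CPM) in knockout-labelled RNA against 35 (6.30 CPM) in wild-type RNA. Its footprints were 131 (34.7 CPM) in the knockout-labelled library against 42 (11.1 CPM) in wild type. Both kinds of library gave about the same ratio, 2.92-fold in RNA (1.98 to 4.49) and 3.09-fold in RPF (2.19 to 4.53). An RNA change this high or higher was found for 212 genes and an RPF change for 264, AREG included.

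EREG encodes epiregulin, a ligand of EGFR and ERBB4, and lies 56382 bases from AREG on the same strand (ENST00000244869, chromosome 4, 74365143 to 74388751). It had 4 reads in knockout-labelled RNA against 11 in wild-type RNA, and 1 footprint in the knockout-labelled library against 0 in wild type. A count of 0 in wild-type RPF allows up to 0.793 CPM at 3 counts. The interval of its RNA ratio ran from 0.0938 to 1.36, so no difference was detectable at this depth, and EREG was not measured by the minimum of 50 reads. AREG, its neighbour, had more reads than EREG in every library.

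TGFA encodes transforming growth factor alpha, an EGFR ligand (ENST00000295400, chromosome 2, 70447280 to 70554015, minus strand, 6 exons). It had 1033 reads (209 CPM) in knockout-labelled RNA against 669 (121 CPM) in wild-type RNA, a ratio of 1.71 (1.55 to 1.89). Its footprints were 183 (48.4 CPM) in the knockout-labelled library against 159 (42.0 CPM) in wild type, a ratio of 1.15 (0.925 to 1.43). TGFA was thus called higher in RNA, and in RPF its interval included no change. At a 2-fold threshold its RNA was not called.

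MET (ENST00000397752, chromosome 7, 116672392 to 116798386, plus strand, 21 exons) had 692 reads (140 CPM) in knockout-labelled RNA against 319 (57.5 CPM) in wild-type RNA. In RPF it had 263 reads (69.6 CPM) in the knockout-labelled library against 108 (28.5 CPM) in wild type. The ratios were 2.41-fold in RNA (2.11 to 2.76) and 2.43-fold in RPF (1.94 to 3.07), so the gap was the same size in both kinds of library within counting error. Of the 4 receptors, MET alone was called in RNA or in RPF.

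EGFR (ENST00000275493, chromosome 7, 55019101 to 55211628, plus strand, 28 exons) had 950 reads (193 CPM) in knockout-labelled RNA against 1311 (236 CPM) in wild-type RNA. The ratio of 0.805 (0.739 to 0.875) excluded no change but was smaller than 1.5-fold, so it was not called. Its footprints were 558 (148 CPM) in the knockout-labelled library against 563 (149 CPM) in wild type, a ratio of 0.991 (0.880 to 1.12). The footprint level of EGFR, not set against its RNA, thus differed by less than the counting error.

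ERBB2 (ENST00000269571, chromosome 17, 39700080 to 39728662, plus strand) had 252 RNA reads in the knockout-labelled library against 266 in wild type, a scaled ratio of 1.05 (0.882 to 1.25), and 147 footprints in the knockout-labelled library against 135 in wild type, a ratio of 1.09 (0.856 to 1.39). ERBB3 (ENST00000267101, chromosome 12, 56079861 to 56103505, plus strand) had 181 RNA reads in the knockout-labelled library against 230 in wild type, a scaled ratio of 0.874 (0.715 to 1.07), and 161 footprints in the knockout-labelled library against 131 in wild type, a ratio of 1.23 (0.969 to 1.56). All of these intervals included no change, and their far bounds leave room for a 1.56-fold rise of ERBB3 footprints. MIEN1, a protein-coding gene on the opposite strand, overlaps the ERBB2 locus and is counted in the same tables. AC034102.2, a protein-coding gene on the same strand, overlaps the ERBB3 locus and is not among the counted genes. Whether the counting used strand is not stated in the labels.

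**Figure D2:**
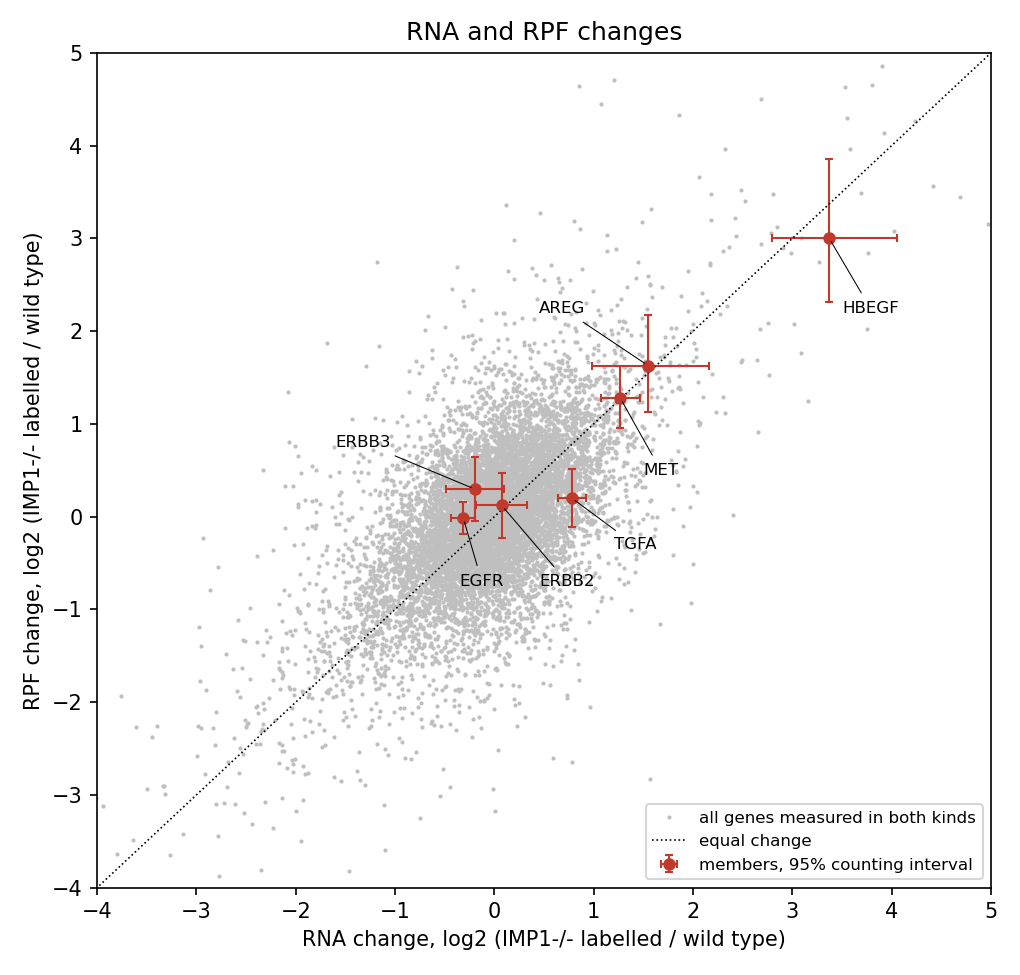
RPF change against RNA change, both as log2 of knockout-labelled over wild type, for the 9598 genes measured in both (grey) and the 7 measured members (red, with 95% counting intervals). The dotted line marks equal change, and 19 genes lie outside the axes. HBEGF (3.37 and 3.00), AREG (1.55 and 1.63) and MET (1.27 and 1.28) lie near that line, TGFA (0.78 and 0.20) below it and the other receptors near 0.

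Translational efficiency (TE) is the ratio of footprints to RNA, and its change is the RPF change minus the RNA change on the log2 scale. It is a value and not a test, since 4 libraries leave 0 residual degrees of freedom. Of the 7 measured members, 0 were called higher and 0 lower in TE, while 15.7% of 9598 genes were called higher and 13.9% lower. TGFA came nearest to a call, at −0.58 (−0.91 to −0.24), or 1.49-fold lower, and scaling by library totals alone put it past 1.5-fold, at −0.59. ERBB3 was at 0.49 (0.05 to 0.92) and EGFR at 0.30 (0.09 to 0.51), with intervals above no change and values under 1.5-fold. MET (0.01), ERBB2 (0.05), AREG (0.08) and HBEGF (−0.37) had intervals that included no change. The interval of HBEGF, from −1.29 to 0.56, is too wide to tell a 2-fold lower TE from none.

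**Figure D3:**
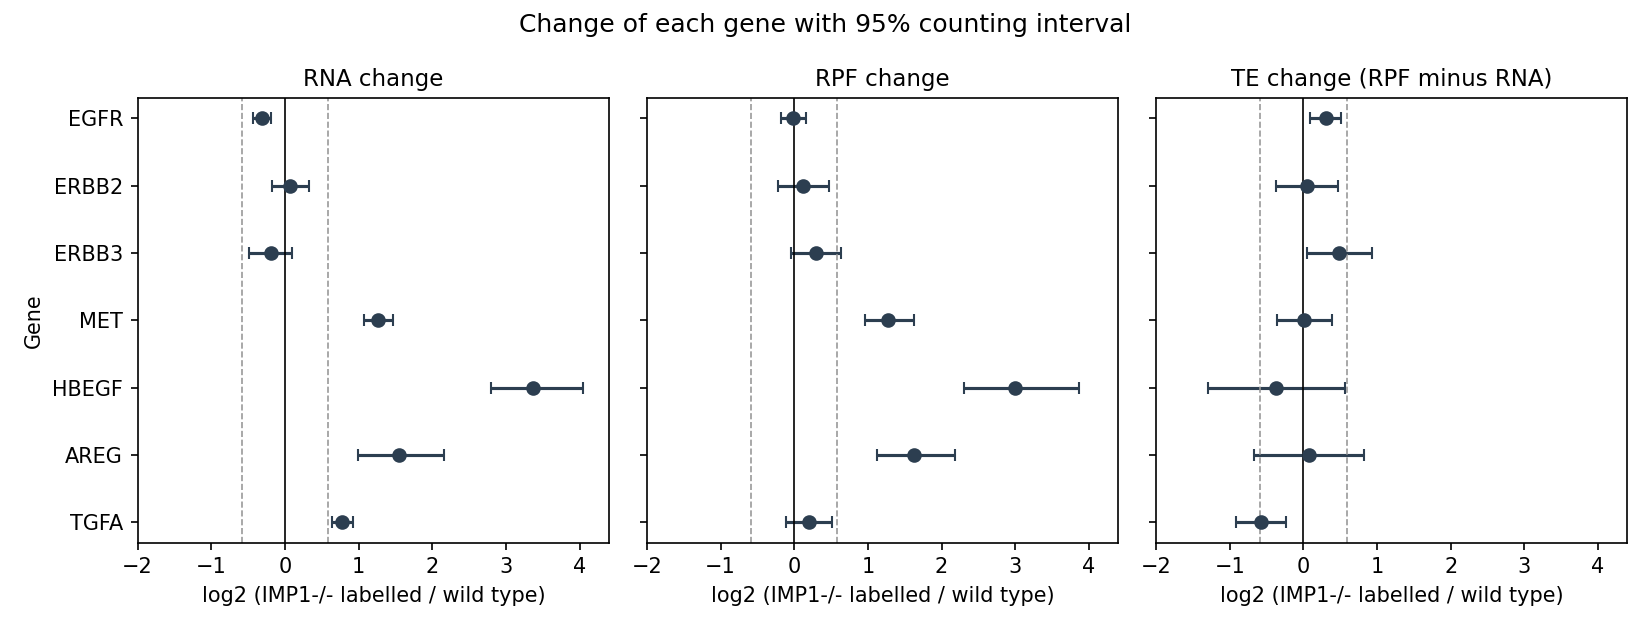
RNA, RPF and TE change of the 7 measured members on the log2 scale (knockout-labelled over wild type), with 95% counting intervals. The dashed lines mark 1.5-fold. MET, HBEGF and AREG lie past the line in RNA and RPF, TGFA in RNA alone, and none in TE.

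Within each genotype the members differed in how many footprints they carried per RNA read. AREG had an RPF to RNA ratio of CPM of 1.84 (1.41 to 2.40) in the knockout-labelled cells and 1.76 (1.12 to 2.76) in wild type. TGFA had 0.231 (0.198 to 0.271) in the knockout-labelled cells and 0.349 (0.293 to 0.415) in wild type. The median over genes with at least 50 reads was 1.03 in the knockout-labelled cells and 1.02 in wild type. AREG thus lay at percentile 78.8 in the knockout-labelled cells and 79.1 in wild type, and TGFA at 7.10 in the knockout-labelled cells and 11.6 in wild type. MET was also low, at 0.496 (0.430 to 0.572) in the knockout-labelled cells and 0.497 (0.399 to 0.618) in wild type. The remaining measured members, EGFR, ERBB2, ERBB3 and HBEGF, lay between 0.761 and 1.16 in the knockout-labelled cells and between 0.630 and 0.998 in wild type. These ratios carry no length correction, and the counted region is not stated. Coding sequence makes up 480 of 4310 transcript bases in TGFA, 756 of 1240 in AREG and 4170 of 6635 in MET. The part of length in the differences between genes was not tested, so a low ratio is not a measure of poor ribosome loading.

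Levels were set side by side between genes per length, as CPM per kilobase of annotated transcript for RNA. In knockout-labelled RNA the order was TGFA (48.6), MET (21.1), HBEGF (20.1), EGFR (19.6), AREG (15.2), ERBB2 (11.2), ERBB3 (6.20) and EREG (0.176). The counting intervals of MET, HBEGF and EGFR overlapped, as did those of EGFR with AREG and of AREG with ERBB2. In wild-type RNA the order was TGFA (28.0), EGFR (24.0), ERBB2 (10.5), MET (8.66), ERBB3 (7.00), AREG (5.08), HBEGF (1.89) and EREG (0.429). Here neighbours from ERBB2 to AREG overlapped. HBEGF stood below all 4 receptors in wild-type RNA and above EGFR, ERBB2 and ERBB3 in knockout-labelled RNA, with an interval there that overlapped that of EGFR. Per kilobase of coding sequence, a length chosen after the data were seen, TGFA, HBEGF and EGFR led in knockout-labelled RNA (436, 77.0 and 53.1) and MET moved ahead of ERBB2 in wild-type RNA (13.8 and 12.7). The labels do not state which region of each transcript was counted.

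For footprints, levels were taken as CPM per kilobase of coding sequence. In knockout-labelled RPF the order was TGFA (101), HBEGF (59.4), AREG (45.9), EGFR (40.7), MET (16.7), ERBB3 (10.6), ERBB2 (10.3) and EREG (0.522). In wild-type RPF it was TGFA (87.6), EGFR (41.0), AREG (14.7), ERBB2 (9.48), ERBB3 (8.60), HBEGF (7.20) and MET (6.85), with EREG at 0. Neighbours from HBEGF to EGFR, and ERBB3 with ERBB2, had overlapping intervals in the knockout-labelled library, as had neighbours from AREG to MET in wild type. Summed over the ligands, the footprint level was 207 in the knockout-labelled library and 109 in wild type, and over the receptors 78.3 in the knockout-labelled library and 65.9 in wild type. The ligands made up 72.5% of the summed footprint level of the 8 members in the knockout-labelled library and 62.4% in wild type. In RNA the ligand share depended on the length used: per kilobase of transcript it was 59.1% in the knockout-labelled library and 41.3% in wild type, and per kilobase of coding sequence, the length used for footprints, it was 83.2% in the knockout-labelled library and 72.6% in wild type. HBEGF alone was 28.7% of the ligand footprint level in the knockout-labelled library and 6.58% in wild type. TGFA was 48.8% of it in the knockout-labelled library and 80.0% in wild type.

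The genes nearest to each member in RNA and RPF change together were taken among 5715 genes with at least 200 reads over the genotypes in each kind, by Euclidean distance on the log2 scale over 2 changes from 4 libraries. Genes with fewer reads were not searched, and HBEGF in RPF and AREG in both kinds lay under this minimum themselves. HBEGF had no gene within 0.25, and its nearest were NLRP1 (distance 0.48, changes of 2.90 in both RNA and RPF) and KRT85 (distance 0.58, 3.70 and 3.49). The counting intervals of HBEGF, 2.80 to 4.05 in RNA and 2.31 to 3.86 in RPF, are wider than 0.25. Its nearest genes are thus not resolved by the counts. The RPF intervals of the other measured members are also wider than 0.25. The narrowest was that of EGFR, −0.19 to 0.16, and that of AREG ran from 1.13 to 2.18. Their nearest genes, named below, are not resolved by the counts either. AREG had 12 genes within 0.25, with NRP1 and HSPA5 nearest (0.03 and 0.06). MET had 33, with LAMA3 and DNAL1 nearest (0.02 and 0.04). TGFA had 158, with PRR14L (0.01) and WDR83OS (0.02) nearest. The other receptors lay in the dense centre, with 571 genes within 0.25 of EGFR (ENO1 and AL021546.6 nearest), 473 of ERBB3 (CD82 and MBOAT7) and 714 of ERBB2 (UBE2Z and ZMYND8).

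Of the other receptors and ligands analysed here, MST1R alone reached 50 reads over the genotypes. ERBB4, the remaining ERBB receptor, had 0 reads in knockout-labelled RNA against 7 in wild-type RNA, and 0 footprints in both. MST1R, a receptor kinase related to MET, was measured and not called, at −0.06 in RNA and 0.30 in RPF. Of 9 other ligands listed, 8 were analysed here and 0 were measured. HGF, the ligand of MET, and NRG4 had 0 reads in all 4 libraries, and NRG2, a neuregulin, had 19 reads in knockout-labelled RNA against 27 in wild-type RNA. EGF itself had 6 reads in knockout-labelled RNA against 1 in wild-type RNA, and 0 footprints in both.

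Of 109 genes in 8 lists of the EGF receptor and MET pathways, 89 were measured in RNA, of which 14 were higher and 11 lower (median log2 change 0.12). In RPF 86 were measured, with 15 higher and 17 lower (median 0.14). In TE 10 of 86 were higher and 12 lower (median −0.03). These counts stand beside 16.2% higher and 17.8% lower over all genes in RNA, 19.0% and 20.1% in RPF, and 15.7% and 13.9% in TE, so the lists as a whole lay close to or under those shares.

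Among the genes that release the ligands, 3 of 8 measured rose past the threshold in RNA and 0 fell past it (median 0.09). They were FRMD8 (0.60), RHBDF1 (0.77) and RHBDF2 (0.59), which form or stabilise the iRhom complex that carries ADAM17 to the cell surface. In RPF 2 of 8 were higher and 1 lower (median 0.02). The sheddase ADAM17 had 278 footprints in the knockout-labelled library against 153 in wild type (0.86, 0.57 to 1.16), RHBDF2 had 345 in the knockout-labelled library against 188 in wild type (0.87, 0.61 to 1.14), and the proprotein convertase FURIN had 92 in the knockout-labelled library against 186 in wild type (−1.01, −1.39 to −0.65). RHBDF2 alone was called in both kinds: FRMD8 (−0.15) and RHBDF1 (−0.0007) were not called in RPF, nor ADAM17 (0.28) in RNA. In TE 0 of 8 were higher and 2 lower, FRMD8 (−0.75) and FURIN (−0.92). Of the 6 measured genes that activate HGF or bind MET, PLAU, the urokinase protease, had 138 reads in knockout-labelled RNA against 42 in wild-type RNA (3.62-fold) and 235 footprints in the knockout-labelled library against 75 in wild type (3.12-fold). PLXNB2, a semaphorin receptor, was lower in both (−0.65 in RNA and −0.67 in RPF), PLXNB1 was also lower in both (−0.76 and −0.66), and SPINT1, an inhibitor of HGF-activating proteases, was higher in RPF (0.63). This group had 1 higher and 2 lower in RNA, 2 higher and 2 lower in RPF, and 0 called in TE.

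Adaptors and kinases had 3 of 25 higher and 3 lower in RNA, 3 of 23 higher and 6 lower in RPF, and 4 of 23 higher and 4 lower in TE. The exchange factor SOS2 was higher in both RNA and RPF (1.18 and 1.17). MAP2K1, which encodes MEK1, was higher in RNA (0.98). In RPF the RAS genes NRAS and HRAS were on opposite sides, with 256 footprints in the knockout-labelled library against 74 in wild type for NRAS (1.78) and 36 in the knockout-labelled library against 104 in wild type for HRAS (−1.52). In TE, NRAS was higher (1.40), and BRAF (−1.40), PIK3R2 (−1.39) and HRAS (−1.03) were lower. BRAF was also lower in RPF (−0.85), and PIK3R2 was higher in RNA (0.76) and lower in RPF (−0.63).

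Negative regulators had 1 of 20 higher and 4 lower in RNA, 4 of 19 higher and 5 lower in RPF, and 3 of 19 higher and 3 lower in TE. DUSP6, a phosphatase of ERK, had 329 reads in knockout-labelled RNA against 1172 in wild-type RNA (−1.68, −1.86 to −1.50) and 509 footprints in the knockout-labelled library against 1867 in wild type (−1.87, −2.02 to −1.73). LRIG1, which promotes turnover of ERBB receptors, was also lower in both, at −1.75 in RNA and −1.35 in RPF. DUSP5, a nuclear ERK phosphatase, was higher in both RNA (0.93) and RPF (0.76). CBLB, a ubiquitin ligase of receptor kinases, had 77 footprints in the knockout-labelled library against 17 in wild type (2.15, 1.41 to 3.03), and a TE change of 1.53. SOCS5 was lower in RNA (−0.64) and higher in TE (1.12), and SPRY2 was lower in RPF (−0.87) and TE (−0.97).

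Early response genes had 2 of 14 higher and 1 lower in each of RNA, RPF and TE. FOSL1, an AP-1 subunit, was higher in RNA (0.59) and RPF (0.74), JUNB was higher in RNA (0.62), and ETV4, an ETS factor, was lower in RNA (−0.91) and higher in TE (0.65). In RPF, KLF6 was higher (0.81) and ATF3 lower (−0.98), and in TE FOS was higher (0.75) and ATF3 lower (−1.05). Genes of receptor endocytosis had 4 of 15 higher and 1 lower in RNA, 2 higher and 2 lower in RPF, and 1 higher and 2 lower in TE. EPS15 (0.74), TSG101 (0.69) and RAB7A (0.65), which act at the coated pit, the sorting endosome and the late endosome, were higher in RNA. In RPF, EPN2 was higher (0.75) and EPN1 (−1.11) and CD2AP (−0.83) were lower, and in TE EPS15L1 was higher (0.90) and EPS15 (−0.67) and RAB5A (−0.78) were lower.

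**Figure D4:**
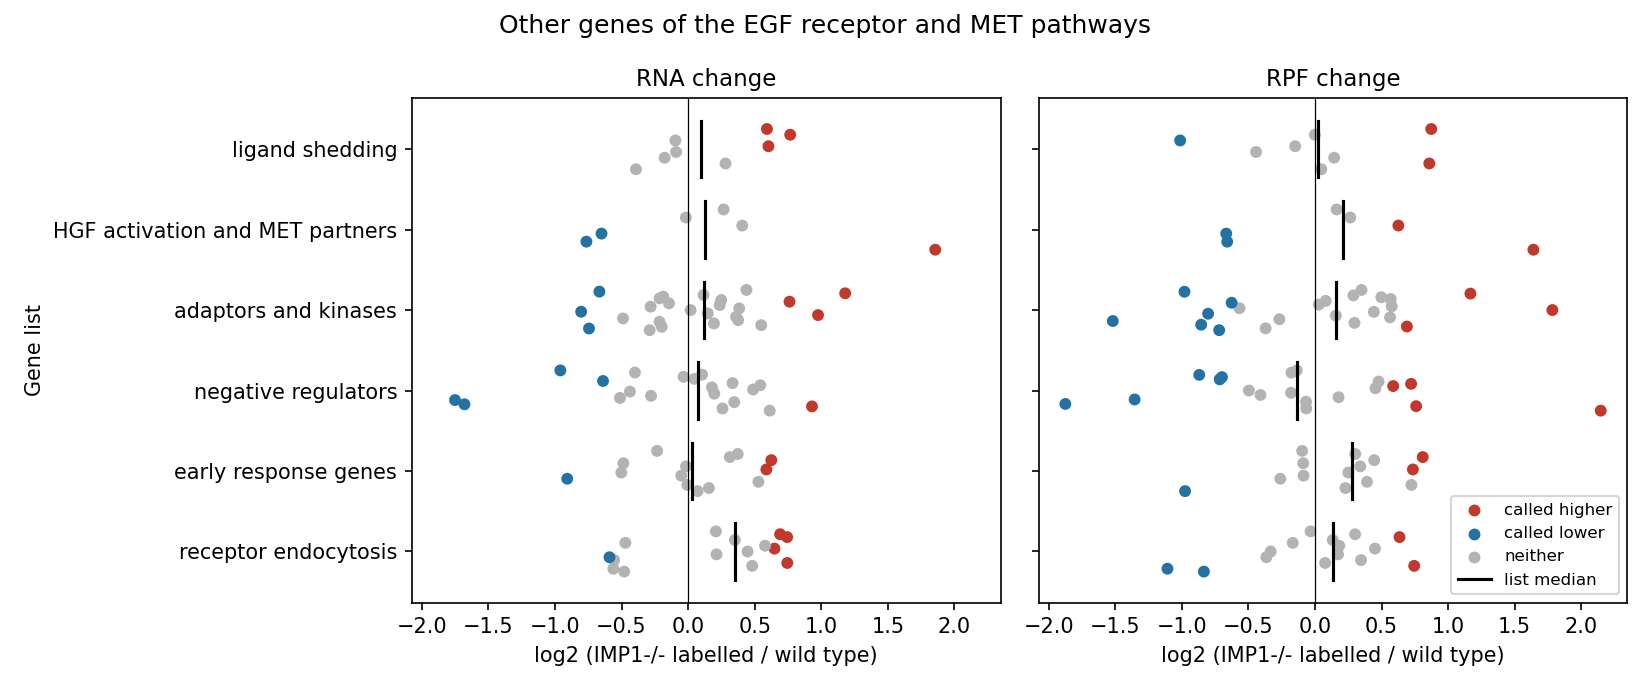
RNA and RPF change (log2, knockout-labelled over wild type) of each measured gene in 6 pathway lists, coloured by call, with the list median as a black bar. The medians lie between 0.03 and 0.35 in RNA and between −0.14 and 0.28 in RPF, with called genes on both sides in most lists.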

How the data were processed

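Per the labels' protocols, footprints and randomly fragmented RNA were ligated to linkers with molecular identifiers, depleted of ribosomal RNA and amplified by PCR. Tools listed in the submitters' processing notes are HISAT2 2.1.0, Bowtie 1.1.2 and cutadapt 1.10, with GRCh38 as the build. Annotation, counted region and treatment of molecular identifiers are not stated there. The authors deposited raw read counts per gene, 1 transcript per symbol. Libraries of a kind were scaled over all genes with TMM in edgeR 4.0.16 (R 4.3.3), which gave a knockout-labelled to wild-type ratio of 0.900 for RNA and 1.00 for RPF. Changes are log2 ratios with a prior count of 0.5. RNA and RPF have exact conditional (Clopper-Pearson) 95% intervals, and TE has intervals from summed reciprocal counts plus the prior. Reads after PCR are not independent molecules, so intervals and floors cover counting error only. A minimum of 50 reads, summed over genotypes, was required in each kind. A count test could not be fitted with 1 library per group. Of the transcripts, 19176 were found in GENCODE release 29 (GRCh38), the source of coordinates and lengths. A promoter was used for 6 of the 8 members. The methods were tested on simulated libraries with known changes, whose only noise was counting error. That test does not cover differences between cultures or copies from PCR. Alternatives changed the scaling (DESeq2 1.42.0 size factors, library totals, and TMM without PLCG2 and MTRNR2L genes), the prior count, the minimum and the fold threshold. Members, lists and rules were chosen with earlier results of these data known. Named genes are the members, IGF2BP1, markers, the 2 nearest genes per member and up to 3 called genes per list and comparison, ranked by the interval bound nearest to no change. 1 gene that this rule names is not reported here. ERBB4 and the other ligands were named after their values were seen. Remaining computations ran in Python 3.11.15 with pandas 2.3.3, SciPy 1.17.1, NumPy 2.4.6 and matplotlib 3.10.9.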

Additional observations from a re-analysis of the deposited data

How the results depend on the processing

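Across 8 alternatives for scaling, prior count, minimum and threshold, 161 of 163 values of single members kept their call, and 0 changed direction among called ones. A changed minimum cannot alter the call of a member that stays measured, and a changed threshold cannot alter a direction. Values of members that fell under a raised minimum were left out of the 163. The median change of all genes stayed within 0.1 of its main value under each scaling. Scaling by library totals put TGFA past 1.5-fold in TE, so 1 member was then lower. At a 2-fold threshold TGFA was no longer called in RNA, which left 3 members higher. The pathway lists then had 2 of 89 measured genes higher and 2 lower in RNA. In RPF 4 of 86 were higher and 5 lower, and in TE 3 of 86 were higher and 4 lower. Over all genes 6.39% were higher and 8.35% lower in RNA, 9.00% and 9.87% in RPF, and 6.46% and 6.28% in TE. At a minimum of 200 reads, 3 members were called higher in RNA, since AREG has fewer reads. In RPF 1 member (MET) was then called higher, since HBEGF and AREG have fewer reads. The lists had 13 genes higher and 8 lower in RPF, and 6 higher and 6 lower in TE. This minimum left 7636 genes measured in RNA, 6060 in RPF and 5715 in TE. Shares called over all genes were not computed at this minimum, so these counts have no background beside them. No paired analysis was possible because each group has 1 library, and for the same reason no library could be left out. Depth limits HBEGF and AREG, whose wild-type libraries held 17 to 42 reads, and EREG.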
